A study of Homo sapiens with 4 samples.

Results

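The miR-106a-363 cluster is a group of 6 microRNA hairpins on human chromosome X. It was followed here through the 8 assays whose name carries miR-106a, miR-18b, miR-20b or miR-363, with or without an arm suffix or asterisk. These are 8 of 737 different miRNA assays, named hsa-miR-106a, hsa-miR-106a*, hsa-miR-18b, hsa-miR-18b*, hsa-miR-20b, hsa-miR-20b*, hsa-miR-363 and hsa-miR-363* (the prefix is dropped from here on), and they read both arms of 4 hairpins. In these older names the plain name is the guide strand, the arm usually loaded into Argonaute, and the asterisk marks the opposite arm. Real-time PCR assays were run on 4 RNAs from the osteosarcoma line U2OS, 1 RNA for each group. One comparison set cells infected with lentivirus carrying a DDX1 shRNA (shDDX1) against cells infected with a control shRNA (shNS), both selected with puromycin at 2 µg/ml. The other set cells treated with neocarzinostatin (NCS) at 500 ng/ml for 6 h against untreated cells. DDX1 is a DEAD-box RNA helicase that the study placed in the processing of some primary miRNAs, and NCS is an enediyne that cuts both strands of DNA. How many shRNA sequences were used, how far DDX1 was lowered and how many cultures lay behind each RNA is not analysed here.

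The cluster is one of 3 paralogous human clusters, with miR-17-92 on chromosome 13 and miR-106b-25 on chromosome 7. A primary transcript carrying the hairpins is cut by Drosha and DGCR8, each hairpin is then cut by Dicer, and the guide strand pairs through its seed with target mRNAs. Guides with the miR-17 seed are known to repress CDKN1A and E2F1, regulators of the cell cycle. In mice the cluster is known as a site of retroviral insertion in T-cell lymphoma.

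In the RefSeq annotation of GRCh38.p14 the 6 hairpins lie on the minus strand of chromosome X, inside the lncRNA gene MIR106AHG (chrX:134169150-134174088). MIR106A comes first, at chrX:134170198-134170278, then MIR18B at chrX:134170041-134170111, MIR20B at chrX:134169809-134169877, MIR19B2, MIR92A2 and last MIR363 at chrX:134169378-134169452. They span 901 bases, with gaps of 42 to 163 bases between neighbours. Mature sequences were matched for 7 of the 8 assays, and miR-106a* is named only. They are shown because the seed, bases 2 to 8 from the 5′ end and printed in capitals, sorts the guide strands into 3 groups.
miR-106a: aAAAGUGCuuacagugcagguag
miR-20b: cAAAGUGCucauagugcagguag
miR-18b: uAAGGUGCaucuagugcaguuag
miR-363: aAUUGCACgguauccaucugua
miR-18b*: uGCCCUAAaugccccuucuggc
miR-20b*: aCUGUAGUaugggcacuuccag
miR-363*: cGGGUGGAucacgaugcaauuu

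The guides miR-106a and miR-20b share the seed of miR-17, miR-20a, miR-93 and miR-106b, whereas miR-18b shares that of miR-18a, and miR-363 that of miR-25, miR-32, miR-92a, miR-92b and miR-367. The guides miR-106a and miR-18b each differ from their chromosome 13 counterpart by a single base. Counted from the 5′ end with the cluster member's base first, miR-106a and miR-17 differ by A1C, miR-18b and miR-18a by U20A, and miR-20b and miR-20a by C1U and C10U. The 6 sequences are shown with those bases in capitals, since they bear on what an assay can tell apart.
miR-106a: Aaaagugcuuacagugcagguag
miR-17: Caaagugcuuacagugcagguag
miR-18b: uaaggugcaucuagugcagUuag
miR-18a: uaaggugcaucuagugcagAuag
miR-20b: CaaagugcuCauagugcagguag
miR-20a: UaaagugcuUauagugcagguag

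Whether the assays separate these near-identical pairs was not tested directly. Of the hairpins with members, 3 are printed with the annotated mature arms in capitals, because the results below turn on differences between the 2 arms of one hairpin. The reference used held no sequence for miR-106a*, so only the guide is in capitals in MIR106A.
MIR106A: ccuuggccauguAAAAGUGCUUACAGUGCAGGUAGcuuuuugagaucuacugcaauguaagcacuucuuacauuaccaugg
MIR18B: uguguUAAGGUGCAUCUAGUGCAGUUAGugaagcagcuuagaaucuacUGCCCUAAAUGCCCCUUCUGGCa
MIR363: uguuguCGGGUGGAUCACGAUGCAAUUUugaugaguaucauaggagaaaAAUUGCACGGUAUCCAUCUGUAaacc

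**Figure D1:**
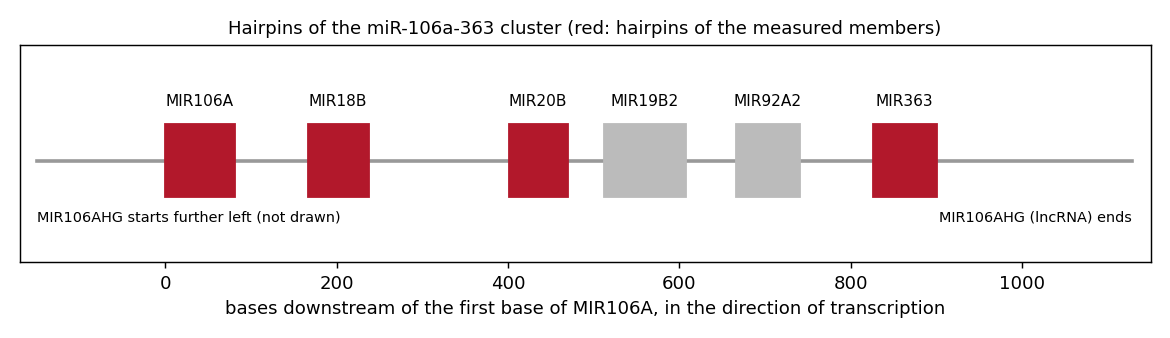
Position of the 6 hairpins, drawn to scale in bases downstream of the first base of MIR106A in the direction of transcription; red boxes are the 4 hairpins of the measured members, grey boxes MIR19B2 and MIR92A2, and the line is MIR106AHG. The hairpins span 901 bases, and the widest gap, 163 bases, lies between MIR18B and MIR20B.

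The values are quantification cycles (Ct), where 1 cycle earlier is taken as 1 doubling of template, so an earlier Ct is a higher level. Of 740 miRNA wells, 723 in shDDX1 and 732 in shNS read under Ct 35, against 591 in NCS-treated and 521 in untreated cells. Throughout the samples 67.4% of wells stayed under this limit, and their mean Ct was 26.1 in shDDX1 and 25.8 in shNS, and 29.4 in NCS-treated and 30.1 in untreated cells. Levels were centred on that mean, and ratios were taken only within a pair. With 1 sample per group no test was possible, and fewer cells and less miRNA per cell cannot be told apart. The SD of a log2 ratio between the wells of 7 assays present on both panels was 0.38 for the knockdown and 0.79 for NCS. The SD for NCS was set largely by miR-423-5p, whose ratios on the 2 panels differed by 2.71, where the next largest difference was -0.84. The wells of the 7 assays read no later than Ct 23.4 in the first pair and 29.5 in the second, so the SD does not cover late wells. Of 11 miRNAs typical of blood, liver, neuron or striated muscle, 11 read under Ct 35 in shDDX1 and in shNS, 10 in NCS-treated and 7 in untreated cells, and no miRNA that defines osteosarcoma was used.

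Of the 8 assays, only the guides miR-106a and miR-18b read early. miR-106a read Ct 19.2 in shDDX1, 19.4 in shNS, 21.8 in NCS-treated and 21.8 in untreated cells. That placed it between the 10th and the 23rd earliest of all miRNA wells with a Ct in the 4 samples. miR-18b read 21.8 in shDDX1, 21.8 in shNS, 24.9 in NCS-treated and 25.5 in untreated cells, between the 50th and the 64th earliest. The other 6 assays read Ct 30.39 to 33.96 in shDDX1 and 30.01 to 33.95 in shNS, later than the earliest water well of their own panel. Those water wells read 27.3 in shDDX1 and 27.8 in shNS on panel I, and 26.5 and 26.6 on panel II. No water well gave a Ct in NCS-treated or untreated cells. The near-identical miR-17 and miR-18a read 24.3 and 22.3 in shDDX1 and 23.9 and 21.7 in shNS. Whether they add to the readings of miR-106a and miR-18b was not tested.

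The guide miR-20b, with the miR-17 seed, read 33.75 in shDDX1 and 33.95 in shNS, and 39.6 in NCS-treated and 38.8 in untreated cells. Since miR-20a read 19.59 in shDDX1 and 19.25 in shNS, the miR-20b assay took up little of it at most. miR-20b was the latest member in shNS. Its opposite arm miR-20b* read 30.39 in shDDX1 and 30.01 in shNS, so that the opposite arm minus the guide was -3.37 and -3.94 cycles, and it was undetermined in NCS-treated and untreated cells. In the other direction, miR-106a* read later than miR-106a by 13.99 cycles in shDDX1 and 10.99 in shNS. miR-18b* read later than miR-18b by 9.74 and 9.10 cycles in the same samples. The arms of the MIR363 hairpin lay within 1 cycle of each other, at 33.96 for miR-363 and 33.68 for miR-363* in shDDX1 and at 32.18 and 33.03 in shNS. Ct differences between assays also carry the assays' own efficiencies, so these gaps describe wells and not molar ratios.

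Only 3 of the 8 assays were under Ct 35 in NCS-treated and untreated cells, namely miR-106a, miR-18b and miR-106a*. miR-18b* read 36.7 in NCS-treated and 38.7 in untreated cells, and miR-363 read 36.7 in NCS-treated cells and was undetermined in untreated ones. miR-20b* and miR-363* were undetermined in both. Ratios after NCS therefore exist for 2 guides and 1 opposite arm.

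**Figure D2:**
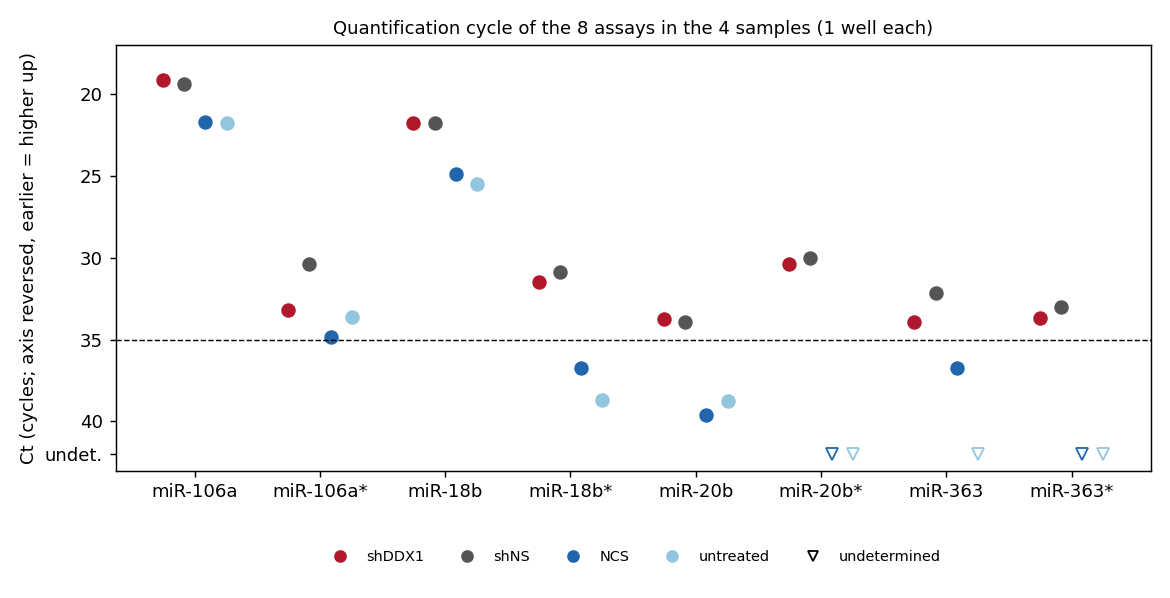
Ct of each of the 8 assays (1 well per sample; y axis in cycles, reversed so that earlier is higher) in shDDX1 (red), shNS (grey), NCS-treated (dark blue) and untreated (light blue) cells; open triangles are undetermined wells and the dashed line is Ct 35. miR-106a and miR-18b read under 26 in every sample, whereas 5 assays lie beyond 35 or are undetermined in the NCS pair.

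In shDDX1 cells, the largest difference among the members was in miR-106a*, the opposite arm of the first hairpin. It read Ct 33.2 in shDDX1 against 30.4 in shNS, a log2 ratio of -2.50, or 5.64-fold lower in shDDX1. Both wells read later than the earliest water well of the panel, at 26.5 in shDDX1 and 26.6 in shNS. The other member past 2-fold was miR-363, the guide of the last hairpin, which shares its seed with miR-25 and miR-92a. It read 33.96 in shDDX1 against 32.18 in shNS, a log2 ratio of -1.48, or 2.79-fold lower. No member was at least 2-fold higher. Across the 716 miRNAs quantified in this pair, the share past 2-fold in shDDX1 was 17.3% for lower and 11% for higher, so 2 lower of 8 is near the background.

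In this pair the median log2 ratio was -0.42 for panel I wells but 0.46 for those of panel II. miR-106a* lies on panel II, where 5.14% of miRNAs were 2-fold lower and 4 of 350 had a lower ratio. miR-363 lies on panel I, where 29% were 2-fold lower and 65 of 366 had a lower ratio. When each panel was centred on its own wells, miR-106a* stood at -2.93 and miR-363 at -1.06. After subtraction of the median of neighbouring wells they stood at -3.05 and -0.87, the second no longer past 2-fold. Both assays read late, and of the 171 miRNAs whose mean Ct in this pair was 30 or later, 17.5% were 2-fold lower and 17% 2-fold higher.

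The remaining guides stood slightly above 0 in shDDX1. The log2 ratio was 0.50 for miR-106a (Ct 19.2 in shDDX1 and 19.4 in shNS), 0.33 for miR-18b (21.8 in both) and 0.50 for miR-20b (33.75 and 33.95). The first 2 are the early-reading members, and their distance from 0 is 1.31 and 0.86 times the SD of repeated wells. Of the opposite arms, miR-18b* stood at -0.31, miR-20b* at -0.07 and miR-363* at -0.34, in late wells that this SD does not cover. Over the 8 members the median log2 ratio was -0.19, against 0.04 over all 716 quantified miRNAs. The signs of these 3 guides turned when small RNAs were the reference, to -0.16 for miR-106a, -0.33 for miR-18b and -0.17 for miR-20b, a scaling that moved the median of all miRNAs to -0.63. Against reference miRNAs miR-18b stood at -0.13.

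**Figure D3:**
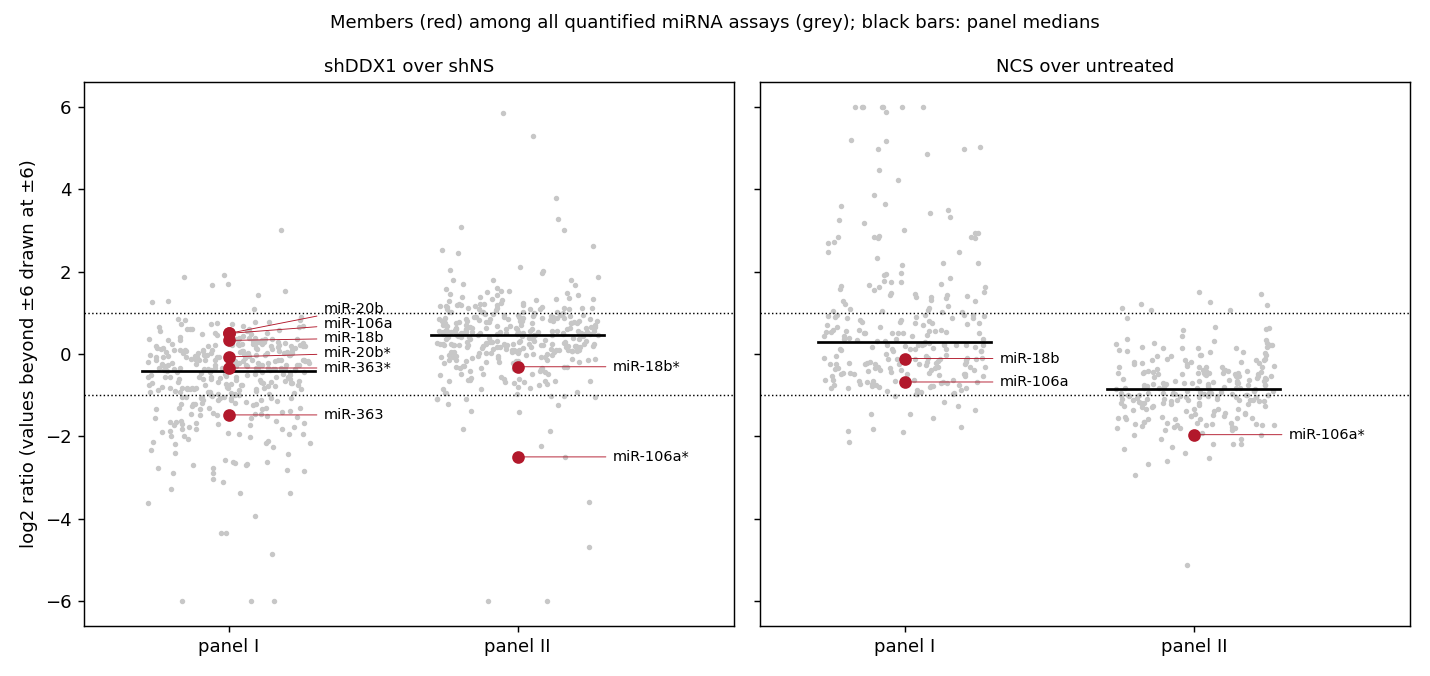
Log2 ratio of the members (red, named) among all quantified miRNA assays (grey points, spread sideways at random) on panels I and II, shDDX1 over shNS at left and NCS over untreated at right; black bars are panel medians and dotted lines mark 2-fold. In shDDX1, miR-106a* lies near the bottom of panel II at -2.50, while the other members lie between -1.48 and 0.50.

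After NCS, the early-reading guides were within 2-fold of untreated cells when levels were centred on the mean over both panels. miR-106a read Ct 21.8 in NCS-treated and 21.8 in untreated cells, a log2 ratio of -0.68. miR-18b read 24.9 in NCS-treated and 25.5 in untreated cells, a ratio of -0.11. The median over all 498 miRNAs quantified in this pair was -0.38, and both guides lie within 1 SD of repeated wells from 0, an SD set largely by 1 assay. Without centring both ratios were above 0, at 0.05 and 0.62, so no direction can be given for either. Other settings put a guide past 2-fold, miR-106a at -1.48 with each panel centred and miR-18b at -1.16 with neighbouring wells subtracted.

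The arm miR-106a* was lower after NCS too. It read Ct 34.8 in NCS-treated against 33.6 in untreated cells, a log2 ratio of -1.96, or 3.88-fold lower. Across the 498 miRNAs the share past 2-fold was 22.3% for lower and 16.9% for higher, and on panel II, where this assay lies, it was 40.4% for lower. Panel II as a whole had a median of -0.84, and 14 of 245 assays on it had a lower ratio than miR-106a*. With each panel centred on its own wells its ratio was -1.13, and after subtraction of neighbouring wells -1.17. Both Ct values are close to the limit of 35, and of the 276 miRNAs with a mean Ct of 30 or later in this pair 29.7% were lower and 16.7% higher.

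miR-106a* was thus at least 2-fold lower in both comparisons, which share no sample. Taken singly, 17.3% of miRNAs were lower in shDDX1 and 22.3% after NCS, and on panel II 5.14% and 40.4%. Of 496 miRNAs quantified in both, 8 were lower in both, or 1.61%. With each panel centred separately 3 were, or 0.605%, and miR-106a* was among them. It was lower in both in 12 of the 13 settings that quantified it, and with the remaining one, a 4-fold threshold, 0 miRNAs were. Under a limit of Ct 32 it was not quantified. The settings are not independent checks, and some could not change the call. A 1.5-fold threshold only loosens it, and the higher Ct limit repeated the main ratios of -2.50 and -1.96. In shDDX1, no centring, the authors' shifted Ct and their folds all gave -2.80. The other 7 of the 8 in the main setting were miR-17*, miR-26b*, miR-27b, miR-122, miR-200b*, miR-297 and miR-518e, named after their values were seen. Whether 8 departs from what the shares of the single comparisons would give was not tested.

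The 2 arms of a hairpin come from 1 precursor, so their log2 ratios were set side by side in shDDX1. In the MIR106A hairpin the guide's ratio was 2.998 above that of its opposite arm, the 16th largest gap by size among 179 hairpins with both arms quantified. In the MIR18B and MIR20B hairpins the guide minus the opposite arm was 0.64 and 0.57, and in MIR363 it was -1.13. Of the 179 hairpins 48% had arms 1 or more apart, and the guide, or 5p arm, was the higher one in 12.8% and the lower one in 35.2%. The arms of MIR20B and of MIR363 lie on panel I. Those of MIR106A and MIR18B lie on different panels, and centring each panel gave gaps of 3.86 and 1.498. After NCS the guide of MIR106A minus its opposite arm was 1.28, and -0.35 with each panel centred. Of 110 hairpins quantified there 59.1% had arms 1 or more apart, with the first-named arm higher in 48.2% and lower in 10.9%.

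The arms of MIR19B2 and MIR92A2 that only this locus makes were also on the panels. miR-19b-2* read Ct 34.5 in shDDX1 and 34.2 in shNS, a log2 ratio of -0.02. miR-92a-2* read 31.37 in shDDX1 and 30.98 in shNS, a ratio of -0.08. Neither was under Ct 35 in NCS-treated or untreated cells. Their guides miR-19b and miR-92a are made from this locus and from miR-17-92 alike, and stood at 0.74 and 0.11 in shDDX1 and at -0.77 and -0.38 after NCS. Of the 8 members and these other 2 arms, only miR-106a* and miR-363 passed 2-fold in shDDX1. The other arm of each of their hairpins was within 2-fold, with miR-106a at 0.50 and miR-363* at -0.34.

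The paralogous clusters were read in the same samples. Without miR-19b and miR-92a, 9 assays belonged to miR-17-92, of which 2 were past 2-fold lower in shDDX1 and 1 higher. Of 6 miR-106b-25 assays, 0 were lower and 2 higher. Across all 716 quantified miRNAs 17.3% were lower and 11% higher, so counts this small are not read as a difference between clusters. All 7 guides of the 2 paralogous clusters were within 2-fold, between -0.36 and 0.28, and 3 of the 4 guides here were too. Differences past 2-fold lay in the opposite arms, with miR-17* at -8.80 and miR-18a* at -2.84, and miR-20a* at 1.10, miR-106b* at 1.16 and miR-93* at 2.53. The guides of the paralogous clusters lie on panel I and these opposite arms, apart from miR-18a*, on panel II. The guide minus the opposite arm was -1.135 for MIR20A, -1.306 for MIR106B and -2.246 for MIR93, and with each panel centred -0.277, -0.449 and -1.388. The 5p guide stayed within 2-fold while its opposite arm was lower in MIR106A (0.50 and -2.50), MIR17 (-0.15 and -8.80) and MIR18A (-0.35 and -2.84). In MIR20A (-0.03 and 1.10), MIR106B (-0.15 and 1.16) and MIR93 (0.28 and 2.53) the opposite arm was higher instead. Of 179 hairpins, the guide, or 5p arm, was higher by 1 or more in 12.8% and lower by as much in 35.2%. The well of miR-17* read Ct 32.45 in shDDX1 against 23.34 in shNS. The earliest water well of its panel read 26.5 in shDDX1.

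**Figure D4:**
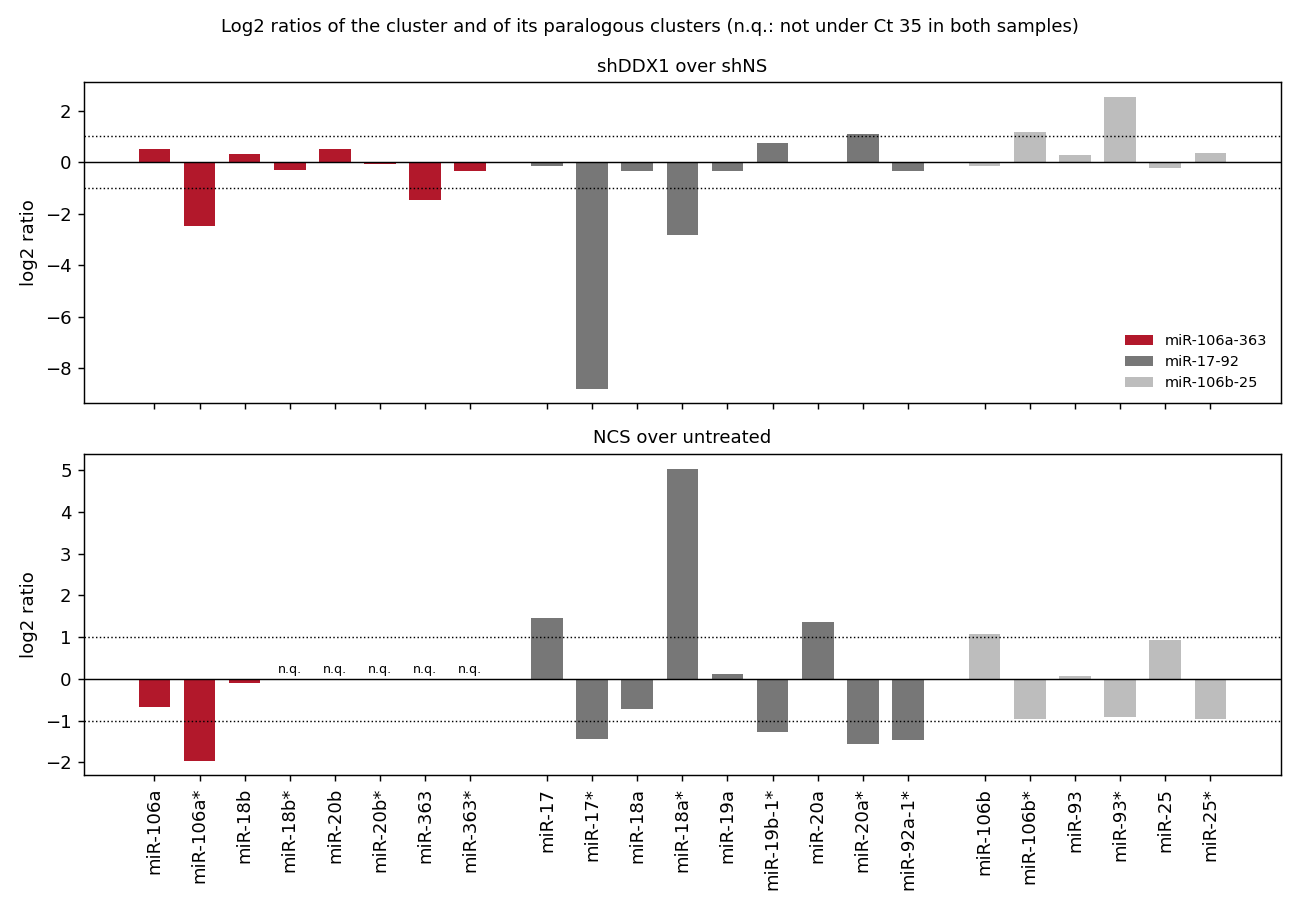
Log2 ratio (bars, 1 sample per group) of the 8 members (red), the 9 miR-17-92 assays (dark grey) and the 6 miR-106b-25 assays (light grey), shDDX1 over shNS above and NCS over untreated below; dotted lines mark 2-fold and n.q. an assay not under Ct 35 in both samples. In shDDX1 the guides of the paralogous clusters lie between -0.36 and 0.28, and the tall bars are opposite arms.

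After NCS, 3 of the 9 miR-17-92 assays passed 2-fold upward and 4 downward, and 1 of the 6 miR-106b-25 assays was higher. Among all 498 quantified miRNAs 16.9% were higher and 22.3% lower, and on panel II 40.4% were lower. The largest of these ratios was that of the opposite arm miR-18a*, at 5.03 (Ct 27.19 in NCS-treated and 32.95 in untreated cells). After subtraction of neighbouring wells miR-18a* stood at 4.47. The guides miR-17 and miR-20a stood at 1.47 and 1.37, whereas miR-106a stood at -0.68, although miR-106a and miR-17 differ only by A1C. miR-17 read Ct 26.1 in NCS-treated and 28.3 in untreated cells, later than miR-106a by 4.36 and 6.51 cycles. miR-106a is in well O4 and miR-17 in well K8 of panel I, whose middle columns, 7 to 18, had a median ratio of 1.21 after NCS against -0.16 in the outer ones. After subtraction of neighbouring wells the ratios were -0.06 for miR-106a and -0.04 for miR-17, so that the difference of -2.15 became -0.02. The other pair that differs by a single base, miR-18b and miR-18a, stood at -0.11 and -0.71 after NCS and at 0.33 and -0.35 in shDDX1. Subtraction of neighbouring wells widened their difference in shDDX1 to 1.96, with miR-18b, in well G9, at 1.76.

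By seed, the miR-17 group (AAAGUGC) of 8 assays had a median log2 ratio of 0.12 in shDDX1, with 0 lower and 1 higher, namely miR-526b* at 1.01. The miR-25 group (AUUGCAC) of 6 had a median of -0.52, with 2 lower, miR-363 and miR-32 at -1.48 and -1.05. All 6 lie on panel I, where 29% of miRNAs were 2-fold lower and the median was -0.42. Within this group the log2 ratio of miR-363 minus that of miR-92a was -1.59, and minus that of miR-25 it was -1.24. Its well read Ct 32.18 in shNS, where miR-92a read 19.5 and miR-25 21.4. After NCS 3 of 7 quantified assays of the miR-17 group were higher (miR-17, miR-20a and miR-106b) and 0 lower, where 16.9% of all miRNAs were higher and 22.3% lower. miR-106a was the only cluster member among the 7. The 3 higher assays lie in the middle columns of panel I, and after subtraction of neighbouring wells miR-17 stood at -0.04 and miR-20a at 0.49. For miR-106b that value is not given here. Of 4 quantified assays of the miR-25 group 2 were higher after NCS, miR-32 at 3.87 and miR-92b at 1.86, and 0 lower. The median of these 4 was 1.39, and miR-363 was not among them.

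The profiles over the 4 samples were compared with those of 495 other miRNAs under Ct 35 throughout, by Euclidean distance between centred levels after each assay's mean was taken off. The nearest to miR-106a were miR-501-3p, miR-29b-1* and miR-320b, at distances of 0.105, 0.124 and 0.13 on the log2 scale. The median distance from miR-106a was 1.54. The nearest to miR-18b were miR-328, miR-651 and miR-515-5p, at 0.166, 0.188 and 0.214, against a median of 1.27. The nearest to miR-106a* lay further off, with miR-26b* at 0.97, miR-27b at 1.14 and miR-487a at 1.4, against a larger median of 2.70. With 4 samples that differ by pair and plate, a short distance describes these wells only.

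The authors' deposited table of folds gives values for members that the Ct table did not read. It lists folds over untreated cells of 3.48 for miR-20b*, undetermined in both samples, and of 4.92 for miR-363, undetermined in untreated cells. For miR-363* the authors' deposited table lists 2.09e-10, with no number for untreated cells behind it. For miR-20b it lists 1.94, although the Ct was later in NCS-treated cells, at 39.6 against 38.8. Shifted Ct values moved by -5.91 cycles in NCS-treated and -4.15 in untreated cells for that assay, and by -3.45 and -3.31 for miR-106a. For the members, the knockdown shift was the same in both samples, so the authors' deposited folds of 0.144 for miR-106a* and 0.291 for miR-363 equal the uncentred Ct differences of -2.80 and -1.78 on the log2 scale.

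**Figure D5:**
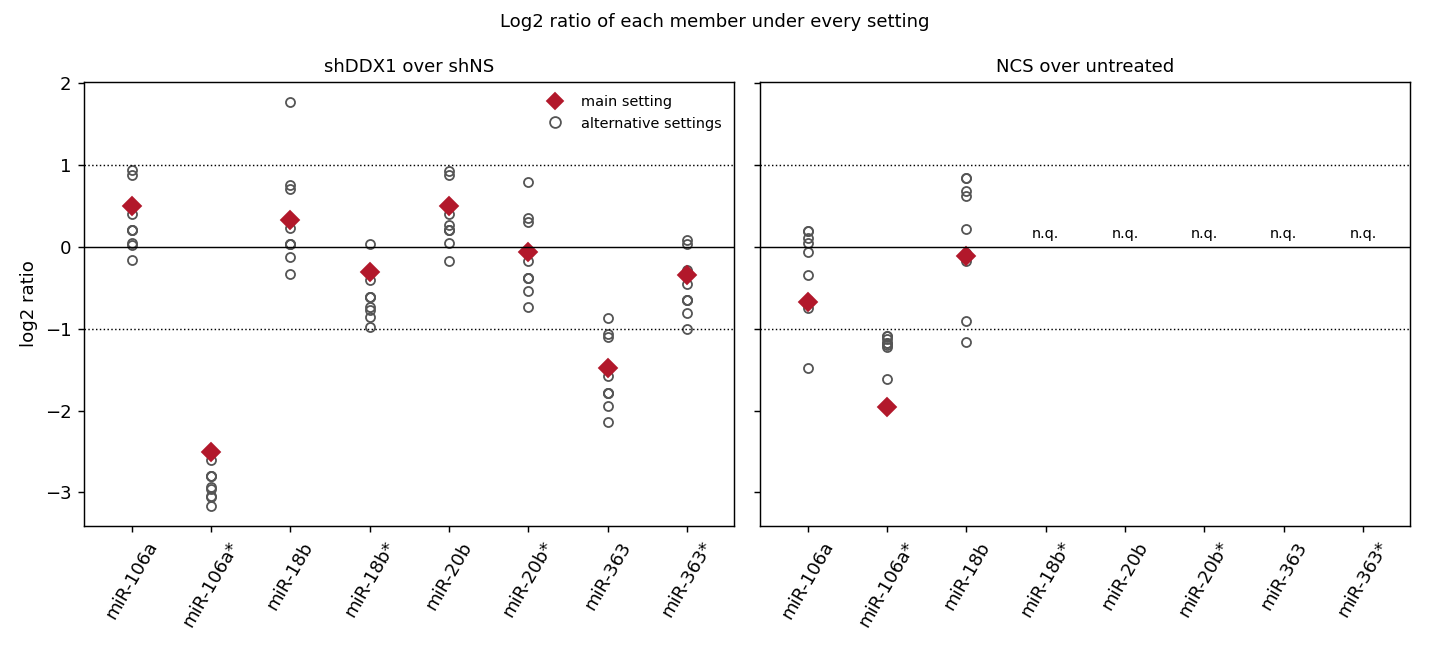
Log2 ratio of each member under the main setting (red diamonds) and under each alternative scaling, starting table or Ct limit (open circles), shDDX1 over shNS at left and NCS over untreated at right; dotted lines mark 2-fold. miR-106a* lies between -3.16 and -2.50 in shDDX1 and between -1.96 and -1.09 after NCS, while miR-106a and miR-18b lie on both sides of 0 in each comparison.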

How the data were processed

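The authors deposited 3 tables: Ct per well for 2 panels of 384 wells, shifted Ct, and a linear fold (ratio) of each sample over its control. Per the labels, Trizol was used to prepare total RNA, an Exiqon kit made the cDNA, and detection was by SYBR Green. Instrument and threshold are not given in the sources used here. How the authors shifted the Ct values is not stated, and 2 fold columns, those of the controls, were not used. From the Ct table, levels were centred on the mean of miRNA wells under Ct 35 in all 4 samples with Python 3.11.15 and pandas 2.3.3. An assay was quantified under Ct 35 in both samples of a pair and called at 2-fold. Wells of one name were averaged, and the 5 bracketed assays were left out. The calculation was tested on simulated data. These held no panel or column effect, no undetermined wells and no added noise in late wells, so the test does not cover such wells. The members and lists were chosen with earlier results of these data known. The genes named were the members, the other arms of the locus, the paralogous clusters, assays sharing a seed, and the 3 nearest profiles. Middle columns were taken from earlier results too. The pooled SD of 3 calibrator wells per plate was 0.191 cycles. Alternatives covered centring, neighbouring wells (within 2 rows and 2 columns), the authors' tables, limits of Ct 37 and 32, and thresholds of 1.5-fold and 4-fold.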

Additional observations from a re-analysis of the deposited data

Results flagged for a closer look

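Water wells lie outside the main measurement. Of 9 per sample, 7 gave a Ct in shDDX1 and 6 in shNS, while 0 did in NCS-treated or untreated cells, and the 6 late members of the cluster read later than the earliest of them. In the authors' deposited table, folds of 3.48 for miR-20b* and 4.92 for miR-363 over untreated cells stand for wells that were undetermined in untreated cells. The part of either in the members' ratios was not tested.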

How the results depend on the processing

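No paired analysis was possible because a group holds a single sample. miR-106a* was at least 2-fold lower in shDDX1 and after NCS in the main setting. It was so too in all 10 alternative scalings, tables and Ct limits that quantified it. miR-363 was lower in shDDX1 in 10 of 11 settings, the exception being neighbouring wells at -0.87. These counts are not of independent checks, as all settings start from the same wells. In shDDX1, no centring, the authors' shifted Ct and their folds gave the same ratio, -2.80 for miR-106a* and -1.78 for miR-363. The higher Ct limit repeated the main ratios of both. The median of the members in shDDX1, -0.19, was -0.86 against small RNAs, -0.65 against reference miRNAs and 0.21 with each panel centred. After NCS the median of 3 members, -0.68, was 0.19 with the authors' shifted Ct and with their deposited folds, 0.11 against small RNAs, 0.05 without centring, -1.13 with each panel centred and -1.16 with neighbouring wells subtracted. Beside 2 lower and 0 higher in shDDX1 (17.3% and 11% of all miRNAs), small RNAs gave 3 lower (miR-363* at -1.01 joined, 35.9% of all), subtraction of neighbouring wells 1 lower and 1 higher (miR-18b, 12.8% and 7.96% of all), Ct 32 gave 0 lower among 4 quantified (16.8% of all), and 4-fold gave 1 (6.01%). Beside 1 lower after NCS (22.3% of all), centring each panel gave 2 (with miR-106a at -1.48, 20.5% of all), neighbouring wells 2 (with miR-18b at -1.16, 12.7%), 1.5-fold 2 (40.6%), 4-fold 0 (2.81%) and Ct 32 0 among 2 quantified (18.4%). The cause of these changes was not tested, apart from the assays that Ct 32 removes. The median of all miRNAs, 0.04 in shDDX1 and -0.38 after NCS, was -0.63 and 0.40 against small RNAs, -0.43 and -0.05 against reference miRNAs, and -0.27 and 0.35 without centring. Single samples and late Ct values limit every ratio.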
